A study of Mus musculus with 8 samples.

Results

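The genes described here are 10 brakes of the cell cycle and parts of the p53 circuit: the CDK inhibitors Cdkn1a, Cdkn1b, Cdkn1c, Cdkn2a, Cdkn2b, Cdkn2c and Cdkn2d, the transcription factor gene Trp53, and the p53 targets Mdm2 and Ccng1. They were chosen by gene symbol, with no measured value in the rule but with earlier results of these data known. They are 10 of the 20696 genes listed in either deposited table. The LT-HSC table lists 9 of them, all but Cdkn2b, and the MPP table lists all 10. Poly(A) RNA was sequenced from 8 libraries in 4 groups of 2. The populations were LT-HSC, the long-term hematopoietic stem cells that sustain blood formation, and MPP, the multipotent progenitors that descend from them and divide more. LT-HSC WT and MPP WT came from mice that carried a graft of wild-type bone marrow, and LT-HSC KO and MPP KO from mice that carried a graft of Tet1 knockout marrow. All mice are labelled strain CD57BL/6 (as spelled there), were sampled 20 weeks after transplant, and are given an age of 6 months. Tet1 encodes a dioxygenase that oxidizes 5-methylcytosine in DNA. All 4 groups thus share the transplant. The sources used here do not give the knockout allele, the donors' sex or the number of mice per library. The p-values therefore reflect the spread of these libraries alone, which may be technical. RNA was prepared from 10000 LT-HSC or 100000 MPP per library.

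CDK inhibitors stop cells in G1 by binding cyclin-dependent kinases. The Cip/Kip proteins (p21 from Cdkn1a, p27 from Cdkn1b, p57 from Cdkn1c) bind cyclin-CDK complexes, while the Ink4 proteins (from Cdkn2a, Cdkn2b, Cdkn2c and Cdkn2d) bind CDK4 and CDK6 and keep the retinoblastoma protein active. Trp53 encodes p53, which is activated mainly through protein stability and induces Cdkn1a, Mdm2 and Ccng1. Mdm2 in turn marks p53 for degradation. In blood stem cells p57 and p27 are known for keeping cells quiescent, and p16Ink4a and p19Arf, both from Cdkn2a, for being held silent by Polycomb.

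Libraries held 4976459 to 5479731 counts for LT-HSC and 11928659 to 12504581 for MPP, so low counts are less precise in LT-HSC. Summed LT-HSC markers were at 2305 to 2427 CPM (counts scaled to a library total of 1000000) in LT-HSC WT, 1847 to 1872 CPM in LT-HSC KO and 931.9 to 995.3 CPM in MPP, while MPP and early lymphoid markers were at 146.9 to 183.9 and 1383 to 1502 CPM. The labelled populations therefore separate on their markers. Markers moved with the KO label in LT-HSC, where 22.6% of all genes tested were higher in KO and 11.0% lower (edgeR adjusted p under 0.05). Of 13 LT-HSC markers 3 were lower in KO (Fgd5, Esam and Ndn). Of 14 tested erythroid markers 14 were higher in KO, and their sum was 5800 to 6614 CPM in KO and 1453 to 1599 CPM in WT. Of 8 bone stromal markers 7 were higher, with sums of 491.1 to 691.5 and 37.98 to 41.43 CPM, and Bglap and Cxcl12 were at 0 in both WT libraries. Of 6 megakaryocyte markers 6 were lower, with sums of 448.2 to 509.7 and 1113 to 1307 CPM. Granulocyte and monocyte markers were at 44.62 to 48.82 CPM in KO and 8.038 to 8.212 CPM in WT, where Camp, Ngp and S100a8 were at 0 in both libraries. T and NK markers were at 28.46 to 34.16 CPM in KO and 83.95 to 87.21 CPM in WT, with 2 of 4 tested lower and 1 higher. Reads over receptor genes of smell and taste, which blood cells should not use, were also more widespread in the LT-HSC KO libraries: 6.3% and 7.4% of 175 such genes were at 0 there, against 57.1% and 60.6% in WT and 8.6% to 17.2% of 58 genes in MPP. The listing itself bears on these shares, since each table holds few genes without reads and 84 of the 175 had counts in KO only. Of the 48 such genes listed in both tables, 3 and 2 were at 0 in LT-HSC KO and 12 and 10 in WT, with median counts of 27 and 18 against 3 and 4. Receptor genes without reads may be missing from the tables, so the background estimated from the listed ones and subtracted below may be too high. In LT-HSC KO, 3 satellite-rich gene models took 7.68% and 9.87% of all counts, against at most 0.213% in the other libraries. The part of these shifts in the results below was not tested except where a value is given. In these bulk samples, fewer cells of a type and less RNA per cell cannot be told apart.

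Tet1 was not lower in the LT-HSC libraries labelled KO. Its counts there were 336 and 379, against 332 and 428 in WT, and the groups overlapped (log2 fold change -0.09, SE 0.19, edgeR adjusted p = 0.769). The MPP WT libraries had 1207 and 1323 Tet1 counts and the MPP KO libraries 765 and 855. That log2 difference of -0.62 (SE 0.10, adjusted p = 0.026) passed, and the call ended without MPP WT replicate 2 (0.0686) or MPP KO replicate 1 (0.0846). Since the deleted part is not given, such counts check the labels weakly, and KO here means the libraries labelled KO. In both populations the 4 Y-linked genes checked were lower in KO, so sex and genotype cannot be told apart in any KO against WT result below.

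The promoter windows of 4 members are shown first, since these are the members with more than 50 counts in any library that differed between KO and WT in LT-HSC: Cdkn1a, Cdkn2d and Mdm2 were lower in KO and Cdkn2c was higher. Each window runs from 250 bases before to 50 bases after a transcript start (RefSeq, GRCm38.p6), 5′ to 3′ on the gene's strand. Capitals mark exact matches to the p53 half-site consensus, the 10-base unit of which p53 binds pairs, and the Cdkn2c window holds none. The Cdkn1a window (chr17:29090729-29091028, plus strand) is that of the upstream of 2 listed starts, 2790 bases before the other. The others are Cdkn2d (chr9:21291160-21291459, minus strand), Mdm2 (chr10:117710709-117711008, minus strand) and the upstream of 2 Cdkn2c starts (chr4:109666707-109667006, minus strand).
Cdkn1a: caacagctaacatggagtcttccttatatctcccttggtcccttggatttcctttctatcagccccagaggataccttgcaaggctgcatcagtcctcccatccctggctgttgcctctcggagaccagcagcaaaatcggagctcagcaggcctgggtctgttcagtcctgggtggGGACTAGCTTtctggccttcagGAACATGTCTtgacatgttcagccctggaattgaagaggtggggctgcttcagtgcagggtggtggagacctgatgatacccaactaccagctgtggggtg
Cdkn2d: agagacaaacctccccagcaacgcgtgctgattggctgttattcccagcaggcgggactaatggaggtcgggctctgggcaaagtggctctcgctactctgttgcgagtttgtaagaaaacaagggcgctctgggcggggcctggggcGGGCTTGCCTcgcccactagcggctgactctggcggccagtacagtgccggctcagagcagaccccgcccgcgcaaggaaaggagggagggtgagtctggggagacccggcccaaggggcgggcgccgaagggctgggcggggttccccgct
Mdm2: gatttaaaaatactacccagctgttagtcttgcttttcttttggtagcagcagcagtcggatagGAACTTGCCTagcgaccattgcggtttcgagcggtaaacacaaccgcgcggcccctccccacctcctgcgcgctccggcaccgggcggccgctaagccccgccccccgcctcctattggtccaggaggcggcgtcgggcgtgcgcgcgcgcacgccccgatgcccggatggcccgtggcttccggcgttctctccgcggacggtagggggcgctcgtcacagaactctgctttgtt
Cdkn2c: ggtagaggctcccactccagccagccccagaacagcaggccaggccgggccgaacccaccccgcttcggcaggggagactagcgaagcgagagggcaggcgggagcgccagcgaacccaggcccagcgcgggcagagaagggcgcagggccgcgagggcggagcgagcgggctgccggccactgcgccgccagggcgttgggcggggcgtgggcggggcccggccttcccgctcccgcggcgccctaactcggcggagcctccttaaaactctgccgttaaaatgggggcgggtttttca

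The Cdkn1a window holds 2 exact half-site matches, 12 bases apart, and those of Cdkn2d and Mdm2 hold 1 each. Near matches are not marked. In the Cdkn1a window the stretch tgacatgttc, which directly follows GAACATGTCT, departs from the consensus at its opening base only. The marked matches are therefore not the only possible pair there. Over 12 windows of 9 members (Cdkn1c had no entry), 5 hold a half-site match, and 8.4% of all 32851 windows of this length do. The windows of Trp53 and Ccng1, neither of which passed the test in LT-HSC, are the other two with a match. CpG, the site of the methylation that Tet1 acts on, occurs 2 times in the upstream Cdkn1a window and 23 times in that of its downstream start. It occurs 22 times in the Cdkn2d window and 35 times in that of Mdm2, against a median of 7 over all windows. For Cdkn2c it occurs 33 times in the upstream window and 8 times in that of the downstream start. On both strands together, GGGCGG was found in 8 of the 12 windows (35.7% of all windows), CCAAT in 7 (37.4%) and TATAAA in 1, that of Trp53 (13.6%). These matches describe the letters only. No DNA methylation or binding data are used here.

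Set as CPM per kb of exon (RPKM), which allows genes to be compared, Cdkn1a and Trp53 led the list in WT cells. In LT-HSC WT the mean level was 79.3 ± 13.5 RPKM (SD, n = 2, as for all means below) for Cdkn1a and 69.9 ± 8.41 RPKM for Trp53, which do not differ beyond their spread. Cdkn2d followed at 33.3 ± 13.2 RPKM, then Mdm2 at 21.3 ± 0.973, Ccng1 at 19.9 ± 4.62, Cdkn1b at 17.0 ± 1.28, Cdkn1c at 11.2 ± 0.562, Cdkn2c at 6.97 ± 1.98 and Cdkn2a at 0.172 ± 0.243 RPKM. The spreads of Cdkn2d, Mdm2, Ccng1 and Cdkn1b overlap with their neighbours in that order. In LT-HSC KO, Trp53 stood alone at the top with 70.2 ± 15.4 RPKM, and Cdkn1a was at 20.9 ± 3.40 RPKM, within the spread of Ccng1 (24.0 ± 2.01) and Cdkn1b (18.3 ± 0.351). In MPP WT the order was Cdkn1a (64.0 ± 0.663 RPKM), Trp53 (52.8 ± 0.258), then Cdkn1b (31.6 ± 0.164) and Ccng1 (30.4 ± 1.68), which do not differ beyond their spread. Mdm2 (19.5 ± 0.789), Cdkn2c (17.1 ± 0.124) and Cdkn2d (13.6 ± 3.04) came next. In MPP KO, Trp53 (43.7 ± 2.69 RPKM) and Cdkn1a (40.4 ± 1.85) overlapped at the top. Cdkn1c was at 1.16 and 1.35 RPKM in MPP KO and WT, and Cdkn2a and Cdkn2b were at most 0.308 RPKM in the MPP groups.

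**Figure D1:**
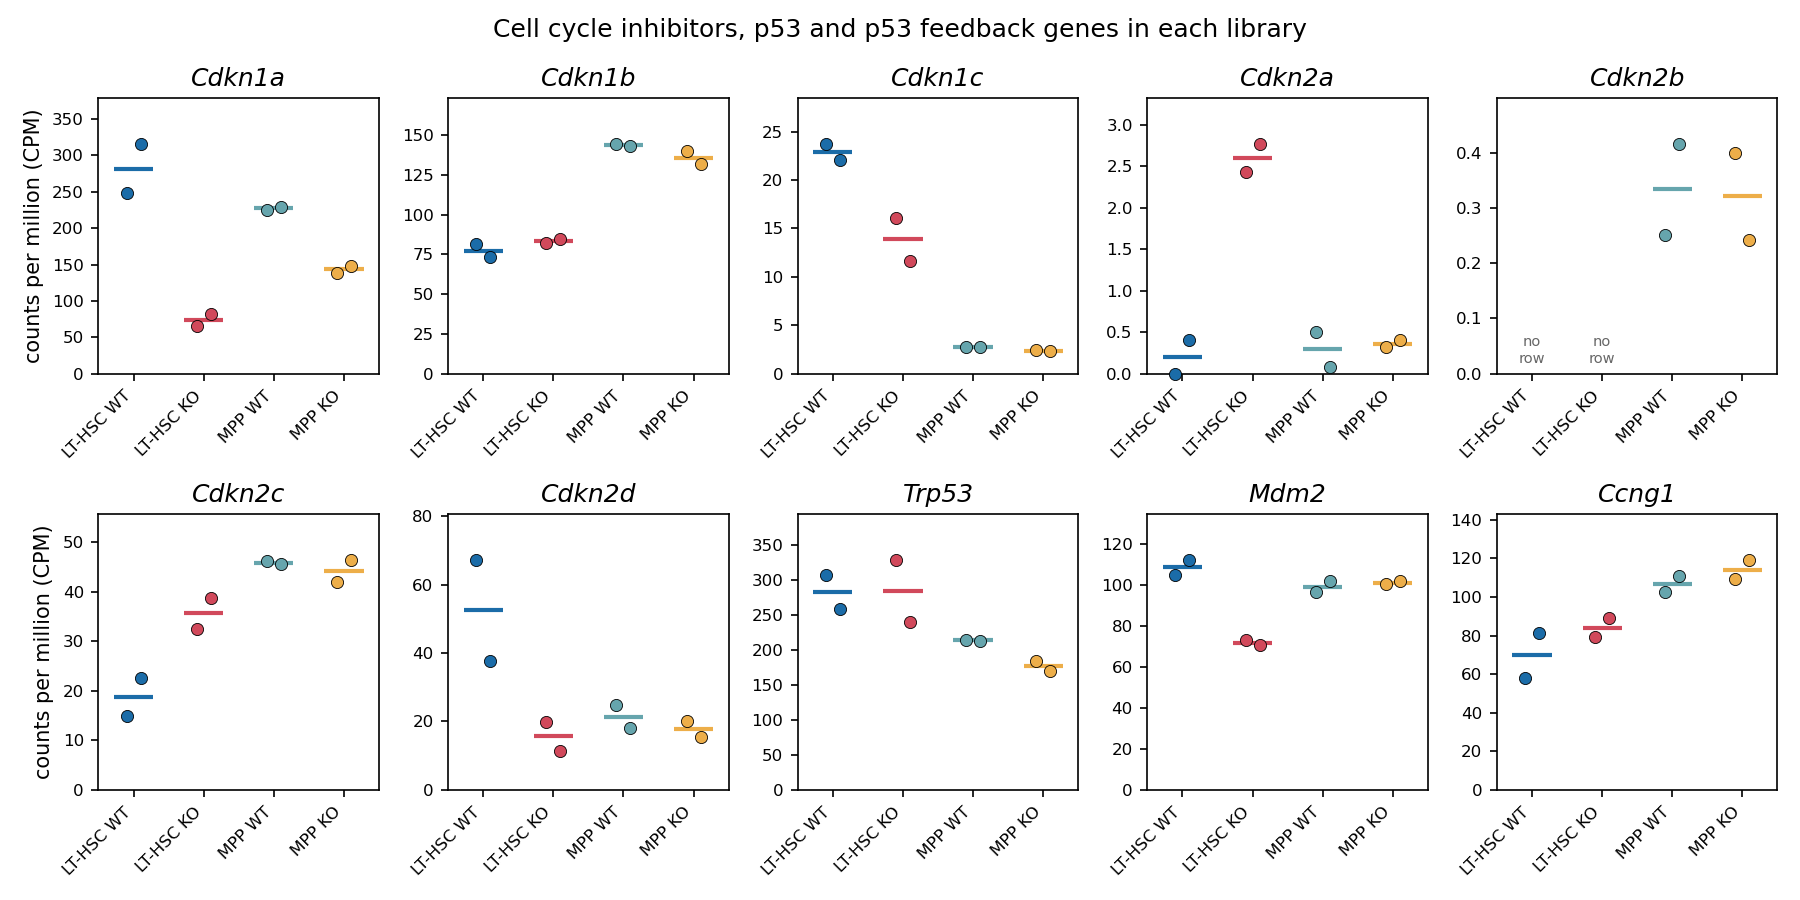
Level of each of the 10 genes in each library, in CPM (linear axes that start at 0 and differ between panels). Points are the 2 libraries of a group, bars their mean, and Cdkn2b has no row in the LT-HSC table; the Cdkn1a points of LT-HSC KO (65.5 and 82.6 CPM) lie below all others, and those of Cdkn1c are high only in LT-HSC.

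In LT-HSC, the comparison of KO with WT asked how the brakes differ in stem cells of mice grafted with marrow labelled Tet1 knockout. Cdkn1a, Cdkn2d and Mdm2 were lower in KO, Cdkn2c and Cdkn2a were higher, and Cdkn1b, Cdkn1c, Trp53 and Ccng1 did not pass the test (edgeR quasi-likelihood test, Benjamini-Hochberg adjusted p under 0.05 over 15684 genes, as throughout). That is 3 lower and 2 higher of 9 tested members, beside 11.0% lower and 22.6% higher of all genes tested. The median log2 fold change of the members was 0.00, beside 0.03 over all genes. With so many genes called, the members' count by itself is not a result about the members.

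Cdkn1a, whose product p21 is the main p53-induced CDK inhibitor (ENSMUSG00000023067, mm9 chromosome 17, 29227924 to 29237667), was at 248 and 316 CPM in the LT-HSC WT libraries and at 65.5 and 82.6 CPM in KO. Both KO libraries lie well below both WT libraries. The log2 fold change was -1.93 (SE 0.18, adjusted p = 0.000154). It ranged from -2.07 to -1.67 over 12 alternative analyses, all of which kept the call (largest adjusted p = 0.012). The authors' deposited table gives a log2 fold change of -1.93 for Cdkn1a.

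Cdkn2d, which encodes the Ink4 protein p19Ink4d (ENSMUSG00000066860, mm9 chromosome 9, 21092907 to 21095653), was at 67.2 and 37.8 CPM in WT and 20.0 and 11.3 CPM in KO. The groups do not overlap, but the libraries within each group lie far apart. Its log2 fold change was -1.76 (SE 0.39, adjusted p = 0.00975). The call was lost when reads estimated from the receptor genes were subtracted (adjusted p = 0.0716 with the median and 0.0958 with the pooled estimate), with fold changes of -1.51 and -1.54. The median estimate put only 1.77 and 1.23 counts on Cdkn2d in the KO libraries, beside 107 and 57 counted. The subtraction also changes the fit over all genes, where 5282 calls became 1786 with the median and 840 with the pooled estimate.

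Mdm2, which encodes the ubiquitin ligase that limits p53 (ENSMUSG00000020184, mm9 chromosome 10, 117125944 to 117147814), was at 105 and 112 CPM in WT and 72.8 and 70.8 CPM in KO. The 2 groups are tight and apart. The log2 fold change was -0.60 (SE 0.16, adjusted p = 0.0199). The call ended without LT-HSC KO replicate 1 (adjusted p = 0.112) or replicate 2 (0.198), with normalization on abundant genes (-0.42, adjusted p = 0.0816) and with the background subtracted (-0.37 and -0.39, adjusted p = 0.16 and 0.163). The pooled estimate put 17.16 and 12.86 counts on Mdm2 in the KO libraries, beside 390 and 358 counted. The authors' deposited table gives Mdm2 a false discovery rate of 0.135.

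Cdkn2c, which encodes p18Ink4c (ENSMUSG00000028551, mm9 chromosome 4, 109333481 to 109339794), was at 15.0 and 22.5 CPM in WT and 32.5 and 38.7 CPM in KO. Both KO libraries were above both WT libraries. The log2 fold change was 0.93 (SE 0.25, adjusted p = 0.0197). The call ended without LT-HSC WT replicate 1 (log2 fold change 0.69), without LT-HSC KO replicate 2 (0.84) and with the pooled background subtracted (1.17, edgeR adjusted p = 0.0576). That pooled estimate put 4.95 and 3.71 counts on Cdkn2c in the KO libraries, beside 174 and 196 counted.

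Cdkn2a (ENSMUSG00000044303, mm9 chromosome 4, 88920377 to 88940557) was called on very few reads. It had 0 and 2 counts in WT and 13 and 14 in KO. The KO to WT ratio of the summed counts was 13.5 (95% interval 3.4 to 117, counting error only), and its fitted log2 fold change was 3.60 (SE 0.88, adjusted p = 0.0123). From the median receptor gene, 13 and 9.05 background counts would fall on a gene of its span in the KO libraries, beside the 13 and 14 counted. After that subtraction it failed the filter on low counts. The call also ended with DESeq2 (adjusted p = 0.0524) and without LT-HSC WT replicate 1 (2.65, 0.0879), LT-HSC KO replicate 1 (0.0797) or LT-HSC KO replicate 2 (0.103). Counts per gene do not separate its p16Ink4a and p19Arf transcripts.

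The other 4 members tested in LT-HSC did not pass. Cdkn1c, the inhibitor most typical of quiescent stem cells, was at 23.7 and 22.1 CPM in WT and 16.1 and 11.7 CPM in KO (log2 fold change -0.72, SE 0.28, adjusted p = 0.0806). Its groups do not overlap, and it passed without LT-HSC WT replicate 2 (-0.87, adjusted p = 0.0266). Cdkn1b was at 81.4 and 73.1 CPM in WT and 82.3 and 84.6 CPM in KO (0.10, SE 0.17, adjusted p = 0.686). Trp53 itself was at 307 and 259 CPM in WT and 328 and 240 CPM in KO, with overlapping groups (0.00, SE 0.21, adjusted p = 0.995). Ccng1, a cyclin-like p53 target that binds Mdm2 and protein phosphatase subunits, was at 58.2 and 81.2 CPM in WT and 79.2 and 89.1 CPM in KO, again overlapping (0.28, SE 0.19, adjusted p = 0.291). Among the p53 targets on the list, Cdkn1a and Mdm2 were thus lower, and Ccng1 did not pass.

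**Figure D2:**
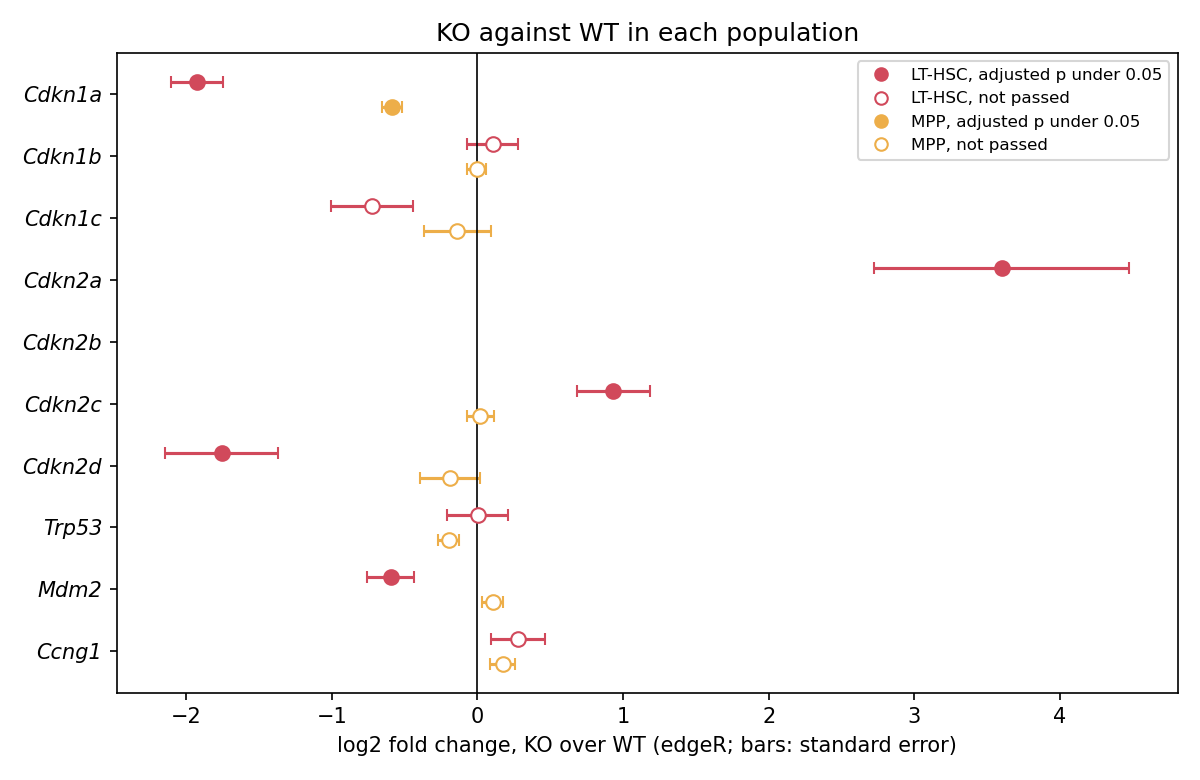
Log2 fold change of KO over WT for each gene tested, in LT-HSC (red) and MPP (yellow), with standard errors from edgeR; filled points have an adjusted p under 0.05. Cdkn1a lies at -1.93 and -0.59, and it is the one gene with a filled point in both populations; Cdkn2a was tested in LT-HSC only and Cdkn2b in neither.

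In MPP, Cdkn1a was the one member that passed the test between KO and WT. It was at 226 and 229 CPM in WT and 139 and 148 CPM in KO, a clear gap between tight pairs. The log2 fold change was -0.59 (SE 0.07, adjusted p = 0.0133 over 14902 genes). The call ended without MPP KO replicate 1 (-0.54, adjusted p = 0.0599) and held in the 11 other alternatives, and the authors' deposited table gives Cdkn1a in MPP a false discovery rate of 0.0975. Of 8 tested members, 1 was lower and 0 higher, beside 2.71% lower and 5.14% higher of all genes. DESeq2 also called 1 lower and 0 higher, beside 267 and 579 of all genes. At an unadjusted edgeR p under 0.05, for which no share of all genes was taken, Trp53 was the one further member, and it was lower. Other markers moved with the KO label in MPP too. The erythroid sum was 1432 to 1535 CPM in KO and 1021 to 1092 CPM in WT, with 8 of 14 markers higher. The granulocyte and monocyte sum was 1583 to 1599 and 818.8 to 821.7 CPM, with 4 of 7 higher. Their part in the MPP results was not tested.

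Trp53 in MPP was at 214 and 213 CPM in WT and 184 and 169 CPM in KO. The pairs do not overlap, but the log2 fold change of -0.20 (SE 0.07) did not pass the adjusted test (0.16). Mdm2 was at 96.2 and 102 CPM in WT and 100 and 102 CPM in KO (0.10, SE 0.07, adjusted p = 0.422). Ccng1 was at 102 and 111 CPM in WT and 109 and 119 CPM in KO (0.18, SE 0.09, adjusted p = 0.267). The p53 feedback genes thus gave overlapping groups in MPP. Cdkn1b was at 144 and 143 CPM in WT and 140 and 132 CPM in KO (-0.01, SE 0.07, adjusted p = 0.973). Cdkn2c was at 46.1 and 45.6 CPM in WT and 41.9 and 46.4 CPM in KO (0.02, SE 0.09, adjusted p = 0.918). Cdkn2d was at 24.7 and 18.0 CPM in WT and 20.2 and 15.4 CPM in KO (-0.19, SE 0.21, adjusted p = 0.628). None of these 3 inhibitors passed the test. Cdkn1c was near 3 CPM in all 4 libraries, with 33 and 33 counts in WT and 30 and 29 in KO (-0.14, SE 0.23, adjusted p = 0.77). Cdkn2a had 6 and 1 counts in WT and 4 and 5 in KO, and Cdkn2b 3 and 5 in WT and 5 and 3 in KO. Both were below the filter, and the KO to WT ratios of their normalized counts were 1.30 (95% interval 0.432 to 4.12) and 1.01 (0.332 to 3.10), which leaves even a several-fold difference undetectable at this depth.

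The KO against WT difference was itself compared between the populations by the interaction term over all 8 libraries, which uses the same libraries as both comparisons above. It was larger in LT-HSC than in MPP for Cdkn1a, by -1.35 on the log2 scale (SE 0.19, adjusted p = 0.00338), and that call held in all 17 alternatives (largest adjusted p = 0.0179). For Mdm2 the interaction was -0.71 (SE 0.14, adjusted p = 0.0105). The Mdm2 call ended without MPP WT replicate 1 (0.0624) or MPP KO replicate 1 (0.0531), and with the background subtracted (0.0544 pooled, 0.0552 median). For Cdkn2c it was 0.91 (SE 0.26, adjusted p = 0.0357), and 7 of its 8 leave-one-out fits lost the call, all but that without LT-HSC WT replicate 2 (adjusted p of 0.0642 and 0.0559 without LT-HSC WT replicate 1 and LT-HSC KO replicate 1, 0.104 without LT-HSC KO replicate 2, 0.0895 and 0.115 without MPP WT replicates 1 and 2, and 0.104 and 0.0789 without MPP KO replicates 1 and 2). Cdkn2d missed the threshold (-1.58, SE 0.50, adjusted p = 0.0531), though it passed with DESeq2 (0.0244) and without LT-HSC WT replicate 2 (0.0173). Of 9 members tested, 2 were lower and 1 higher, beside 8.63% and 13.7% of all genes. The sizes of Cdkn1b, Cdkn1c, Cdkn2a, Trp53 and Ccng1 were not shown to differ between populations.

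Summed over the CDK inhibitor genes, the level per kb of exon was 147.6 to 148.5 RPKM in the LT-HSC WT libraries and 71.3 to 71.5 RPKM in KO. In MPP it was 126 to 130.1 RPKM in WT and 99.3 to 99.9 RPKM in KO. The KO libraries were below the WT libraries in both populations, and an exact permutation test of 2 libraries against 2 cannot reach the threshold, so the sum is given as a description. Cdkn1a made up 53.6% ± 8.87 of the sum in LT-HSC WT and 29.2% ± 4.70 in KO, and 50.0% ± 1.63 and 40.5% ± 2.03 in MPP. Cdkn1b made up 11.5% ± 0.919 of the sum in LT-HSC WT and 25.7% ± 0.432 in KO, while its own level did not pass the test. Cdkn2c had a share of 4.71% ± 1.32 in LT-HSC WT and 18.6% ± 2.26 in KO. The share of Cdkn2d, itself lower in KO, was 22.5% ± 9.02 in LT-HSC WT and 13.9% ± 5.515 in KO. Such shares are tied to each other, since a lower Cdkn1a alone would raise all others.

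**Figure D3:**
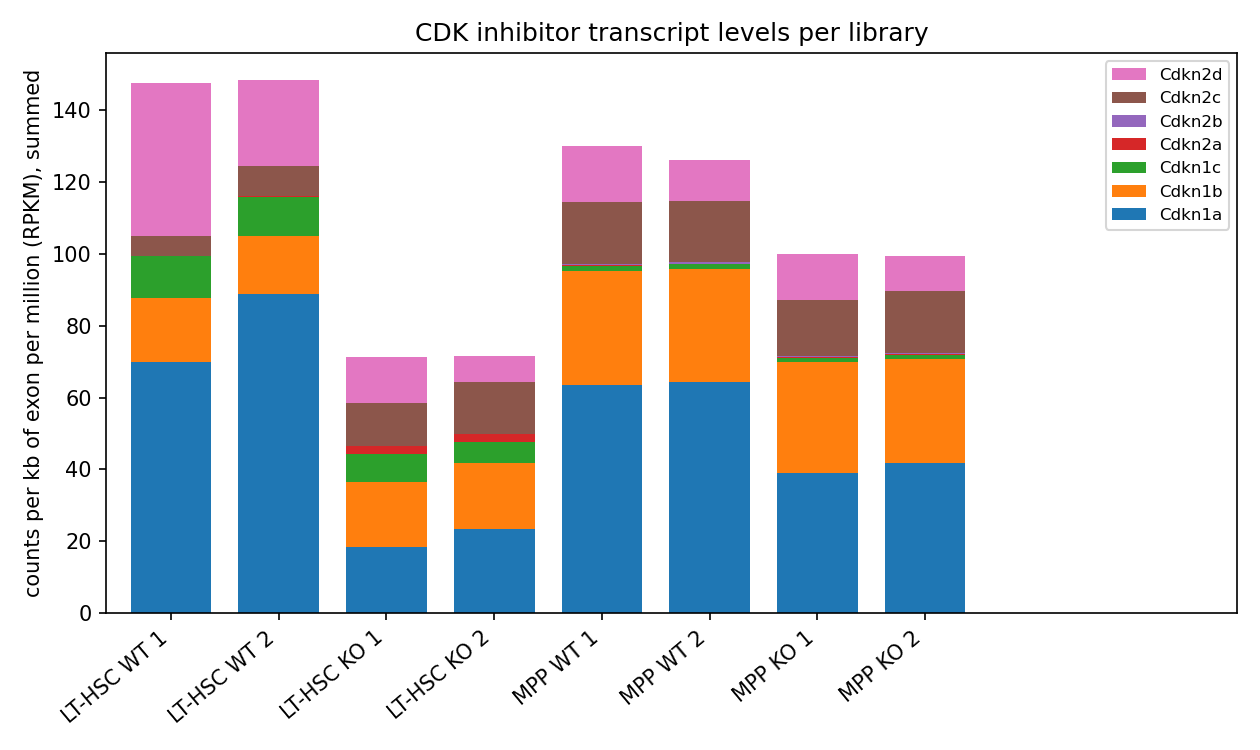
Summed level of the CDK inhibitor genes in each of the 8 libraries, as RPKM (CPM per kb of exon, linear axis from 0), stacked by gene. The LT-HSC KO columns reach 71.3 and 71.5, below the 147.6 and 148.5 of LT-HSC WT, and the Cdkn1a segment is shorter in KO than in WT in both populations.

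Between the WT populations, Cdkn1c and Cdkn2d were higher in LT-HSC and Cdkn1b, Cdkn2c and Ccng1 were higher in MPP. The number of cells per preparation (10000 LT-HSC, 100000 MPP) and the depth differ with population, so population and preparation cannot be told apart. Cdkn1c differed most, at 23.7 and 22.1 CPM in LT-HSC WT and 2.77 and 2.74 CPM in MPP WT, a log2 difference of 3.07 (SE 0.23, adjusted p = 0.000454). Cdkn2d was higher by 1.34 (SE 0.34, adjusted p = 0.0274). Cdkn2c was lower in LT-HSC by a log2 difference of -1.28 (SE 0.20, adjusted p = 0.00637) and Cdkn1b by -0.87 (SE 0.14, adjusted p = 0.00691). These 4 calls held in all 13 alternatives. Ccng1 was lower by -0.60 (SE 0.16, adjusted p = 0.0344), a call lost without MPP WT replicate 1 (0.0884) or replicate 2 (0.214) and with abundant-gene normalization (0.0516). Cdkn1a (0.33, adjusted p = 0.0955), Trp53 (0.43, adjusted p = 0.0707) and Mdm2 (0.15, adjusted p = 0.376) did not pass. Cdkn1a passed without LT-HSC WT replicate 1 (0.0113), and Trp53 without LT-HSC WT replicate 2 (0.00723) and with abundant-gene normalization (0.0404). Of 8 tested members, 2 were higher in LT-HSC and 3 lower, beside 17.1% and 16.7% of all genes.

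Between the KO populations, 8 of 9 tested members differed, 3 higher in LT-HSC and 5 lower, beside 27.5% and 24.1% of all genes. The KO libraries are the same as in the comparisons with WT, and population and preparation again cannot be told apart. Cdkn1c was again higher in LT-HSC KO than in MPP KO (2.40, SE 0.29, adjusted p = 0.00018), and Cdkn1b lower (-0.85, SE 0.12, adjusted p = 0.000444). Cdkn1a, which did not pass between the WT populations, was lower in LT-HSC KO than in MPP KO (-1.10, SE 0.14, adjusted p = 0.000292). Mdm2 was lower too (-0.64, SE 0.12, adjusted p = 0.00206). Cdkn2a was higher (2.65, SE 0.54, adjusted p = 0.00325) on the few counts described above. Trp53 was higher (0.54, adjusted p = 0.0182), a call lost without LT-HSC KO replicate 1 (0.30, 0.116) or MPP KO replicate 2 (0.0858). Ccng1 (-0.58, adjusted p = 0.0048) lost the call without MPP KO replicate 2 (0.074), with abundant-gene normalization (-0.34, 0.0505) and with the background subtracted (-0.33 and -0.32, 0.083 and 0.0911). Cdkn2c (-0.45, adjusted p = 0.0367) lost it in 8 of 13 alternatives, among them every leave-one-out fit but that without LT-HSC KO replicate 2 (0.144 without LT-HSC KO replicate 1, 0.0933 and 0.279 without MPP KO replicates 1 and 2). Cdkn2d did not differ beyond the spread (-0.33, SE 0.28, adjusted p = 0.358).

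Other p53 target genes moved in both directions. Of 29 tested in LT-HSC, 6 were lower in KO, 5 higher and 18 not past the threshold, beside 11.0% lower and 22.6% higher of all genes. The median log2 fold change was -0.09 beside 0.03 over all genes. The 11 calls fell to 3 with the pooled and 6 with the median background subtracted, while the 5282 calls over all genes fell to 840 and 1786. Bbc3, which encodes the death protein Puma, was at 47.5 and 47.4 CPM in WT and 16.2 and 12.3 CPM in KO (-1.73, SE 0.25, adjusted p = 0.00115). Tap1, an antigen peptide transporter gene, fell by 1.23 on the log2 scale (SE 0.15, adjusted p = 0.000618), from 237 and 254 CPM to 106 and 103 CPM. Both calls held in all 12 alternatives. Plk3, a stress kinase gene, was at -1.21 (SE 0.28, adjusted p = 0.00926), and Polk, a translesion polymerase gene, at 1.40 (SE 0.30, adjusted p = 0.00665). Both lost the call with a background subtracted (0.11 and 0.0904 pooled, 0.0892 and 0.065 median).

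The remaining called p53 targets in LT-HSC were outside the rule for named genes and are given after their values were seen. Pmaip1, which encodes the death protein Noxa, had 46 and 56 counts in WT and 13 and 19 in KO (-1.66, adjusted p = 0.0144), a call lost without LT-HSC KO replicate 1 (0.132) and with a background subtracted (0.111 pooled, 0.0793 median). The mTOR inhibitor gene Ddit4 was lower, with 610 and 489 counts in WT and 285 and 264 in KO (adjusted p = 0.0031), and so was the anti-proliferative gene Btg2 (-0.86, adjusted p = 0.00405). The median receptor gene would put only 1.4 and 0.9 background counts on Ddit4 in the KO libraries. On Btg2 it would put 2.5 and 1.8, beside 1285 and 1437 counted. Both calls held when each of the 4 LT-HSC libraries was left out in turn, but with the pooled background subtracted Ddit4 (0.0601) and Btg2 (0.0758) lost them, as did Btg2 with the median background (0.0641). Ei24 (1.11, adjusted p = 0.0115) was higher except without LT-HSC KO replicate 1 (0.0853). Zmat3, an RNA-binding protein gene, was higher (1.11, adjusted p = 0.0259) except without LT-HSC WT replicate 1 (0.0628) or LT-HSC KO replicate 2 (0.203), with DESeq2 (0.0559) or with a background subtracted (0.127 and 0.113). The nuclease gene Aen was higher (0.70, adjusted p = 0.0261) except without LT-HSC WT replicate 1 (0.0673), LT-HSC KO replicate 1 (0.172) or LT-HSC KO replicate 2 (0.122), with DESeq2 (0.0754) or with the pooled background subtracted (0.0501). Eda2r, a receptor gene, had 3 and 4 counts in WT and 18 and 23 in KO (2.51, adjusted p = 0.0102, lost without LT-HSC KO replicate 1 at 0.073 or replicate 2 at 0.164). The median receptor gene of smell and taste would put 27.9 and 19.4 background counts on its span in the KO libraries, beside those 18 and 23, and it fell below the filter after that subtraction.

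In MPP, 4 of 28 tested p53 targets were lower in KO, 2 higher and 22 not past the threshold (median -0.01, as over all genes), beside 2.71% lower and 5.14% higher of all genes. Trp53inp1, a p53-induced stress gene, was at 158 and 174 CPM in WT and 341 and 418 CPM in KO (1.27, SE 0.12, adjusted p = 0.00827), in all 12 alternatives. Pmaip1 was lower by -0.65 on the log2 scale (SE 0.11, adjusted p = 0.0284), lost without MPP WT replicate 2 (0.0782) or MPP KO replicate 1 (0.0939). Bbc3 (-0.53, SE 0.11, adjusted p = 0.049) lost its call without any 1 of the MPP libraries (0.121 to 0.207), and so did Perp (-1.04, SE 0.19, adjusted p = 0.038), an adhesion gene (0.0956 to 0.16). With DESeq2, 2 were higher and 1 lower, beside 579 and 267 of all genes. The 6 calls fell to 3 with the pooled background subtracted, while the 1170 calls over all genes fell to 891. Fewer also passed without any 1 of the MPP libraries, among these targets and over all genes. The other two called genes are named after their values were seen. Fas, which encodes a death receptor, had 10 and 15 counts in WT and 55 and 67 in KO (2.30, SE 0.30, adjusted p = 0.0165). The call held in all 12 alternatives, with log2 fold changes of 2.03 to 8.13, and of 2.03 to 2.61 with a library left out. The size thus depends on the processing of its low WT counts. In LT-HSC, Fas was at -1.06 (SE 0.45, adjusted p = 0.0993). Phlda3, an Akt inhibitor gene, was lower (-1.40, SE 0.29, adjusted p = 0.0496), a call lost without any 1 of the MPP libraries (0.143 to 0.227) and, like those of Bbc3 and Perp, with DESeq2 (0.255, 0.219 and 0.159) and with the pooled background subtracted (0.0791, 0.0594 and 0.0546).

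**Figure D4:**
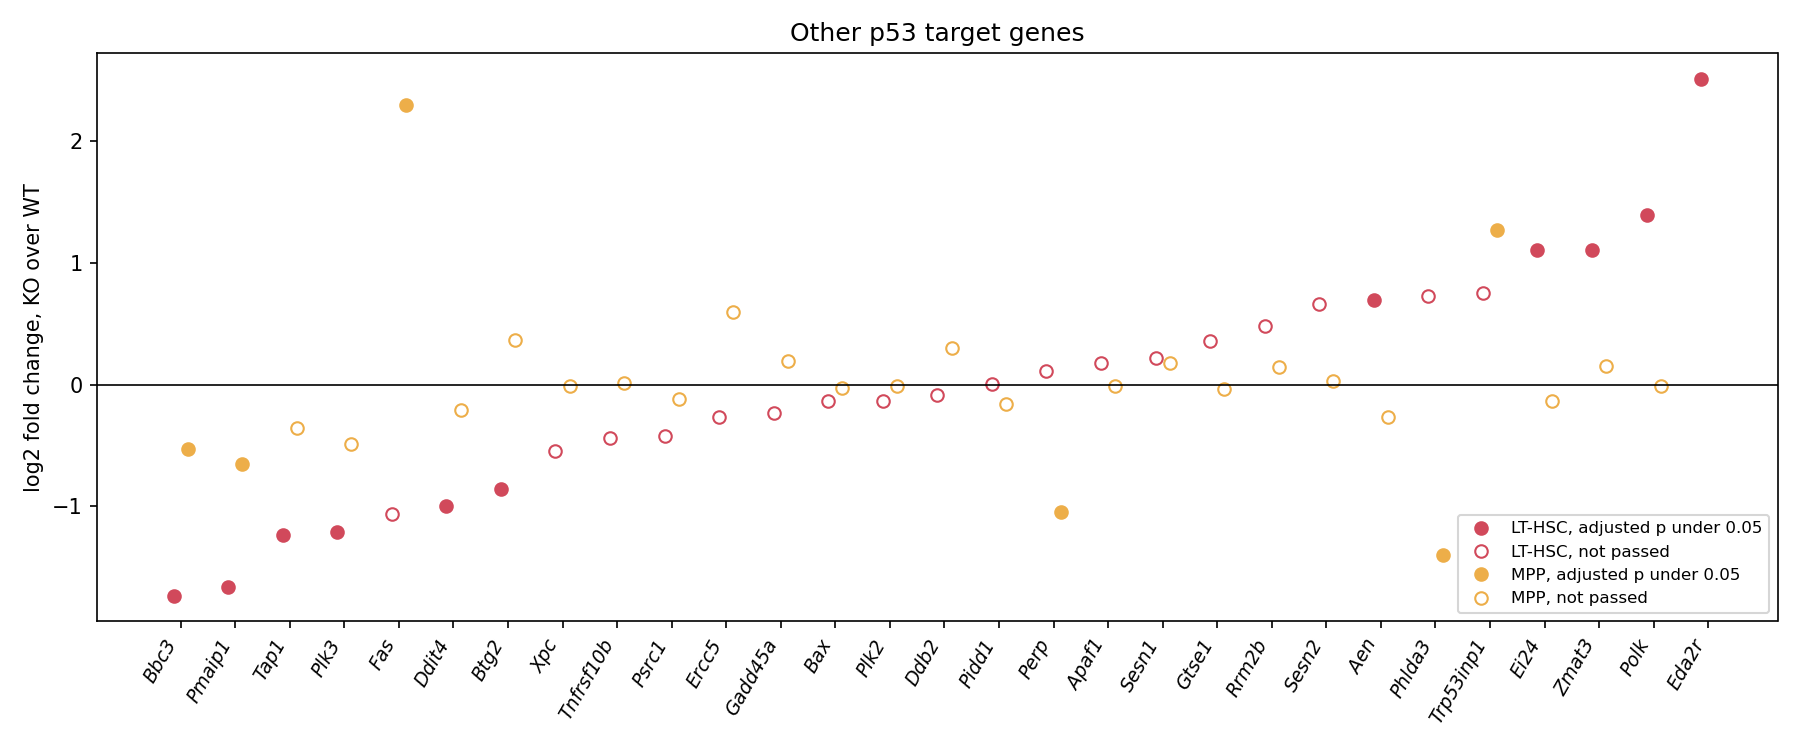
Log2 fold change of KO over WT for 29 p53 target genes other than the 10 described, in LT-HSC (red) and MPP (yellow), ordered by the LT-HSC value; filled points have an adjusted p under 0.05. The LT-HSC points run from -1.73 (Bbc3) to 2.51 (Eda2r, not tested in MPP), with 6 filled points below 0 and 5 above.

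Among regulators and relatives of p53 in LT-HSC, 3 of 20 tested were higher in KO, 3 lower and 14 did not pass (median 0.03), beside 22.6% and 11.0% of all genes. The 6 calls became 0 with either background subtracted, while the 5282 calls over all genes became 840 (pooled) and 1786 (median). Fewer also passed without either LT-HSC KO library, in the list and over all genes. Trp53bp2 (-0.77, SE 0.19, adjusted p = 0.0146) and Ppp1r13b (-0.68, SE 0.16, adjusted p = 0.0111), which encode p53-binding ASPP proteins, were lower. The acetyltransferase gene Kat5 was lower (-0.66, SE 0.21, adjusted p = 0.0388) and the checkpoint kinase gene Atr higher (0.57, SE 0.18, adjusted p = 0.0338). All 4 calls ended without LT-HSC KO replicate 1 (Trp53bp2 0.133, Ppp1r13b 0.0511, Kat5 0.0744, Atr 0.071) and without LT-HSC KO replicate 2 (0.0654, 0.139, 0.288 and 0.325). They also ended with the pooled (0.0771, 0.0975, 0.248 and 0.0789) and the median background subtracted (0.0605, 0.0851, 0.239 and 0.0652). Those of Kat5 and Atr also ended without LT-HSC WT replicate 1 (0.0904 and 0.0739) and with DESeq2 (0.0644 and 0.1), and those of Trp53bp2 and Kat5 with abundant-gene normalization (0.0509 and 0.106). The other two higher genes, the p53 relatives Trp63 and Trp73, are named after their values were seen. Trp63 had 1 and 0 counts in WT and 16 and 51 in KO, and the median receptor gene would put 134 and 93.4 counts on its long span. Trp73 had 0 and 3 counts in WT and 17 and 20 in KO, beside 54.1 and 37.6 expected in the same way, and its call was lost without LT-HSC KO replicate 2 (0.0654). Both fell below the filter with either background subtracted. At an unadjusted edgeR p under 0.05 in MPP, for which no share of all genes was taken, 2 were higher and 1 lower, and DESeq2 called 0. By the adjusted edgeR test, beside 5.14% higher and 2.71% lower of all genes, 1 of 19 was higher and 0 lower in MPP (median 0.05). The higher gene was Trp73, with 9 and 9 counts in WT and 38 and 29 in KO (1.90, SE 0.32). The median receptor gene would put 11.0 and 14.2 counts on its span in these KO libraries. With the pooled background subtracted 0 genes of the list were called, beside 891 of all genes. The Trp73 call was also lost without any 1 of the MPP libraries (log2 fold change 1.70 to 2.07).

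Of the cyclins and kinases that the inhibitors act on, 4 of 12 were higher in LT-HSC KO, 2 lower and 6 did not pass (median 0.06), beside 22.6% and 11.0% of all genes. Fewer passed without LT-HSC KO replicate 1, in the list and over all genes. The cyclin E gene Ccne1, the CDK2 partner that p21 and p27 block, was at 7.48 and 8.84 CPM in WT and 95.8 and 86.8 CPM in KO (3.48, SE 0.22, adjusted p = 4.75e-05). Ccne2 followed at 6.75 and 7.64 CPM in WT and 27.3 and 24.3 CPM in KO (1.84, SE 0.28, adjusted p = 0.00154). The mitotic cyclin gene Ccnb1 was at 16.2 and 24.3 CPM in WT and 39.0 and 51.0 CPM in KO (1.15, SE 0.25, adjusted p = 0.00692). These 3 calls held in all 12 alternatives. Ccnd1, a partner of CDK4 and CDK6, was lower by -0.69 (SE 0.22, adjusted p = 0.0364) and lost the call in 7 alternatives, among them without LT-HSC WT replicate 2 (0.0794), LT-HSC KO replicate 1 (0.238) or LT-HSC KO replicate 2 (0.119). Outside the naming rule, Cdk6 was lower (-0.67, adjusted p = 0.00803) except without LT-HSC KO replicate 1 (0.0724) or 2 (0.097) or with the pooled background subtracted (0.0606), and Ccna2 higher (0.60, adjusted p = 0.0264) except without LT-HSC WT replicate 2 (0.0634) or LT-HSC KO replicate 1 (0.312) or with DESeq2 (0.0602). In MPP, 0 of 12 passed with edgeR or DESeq2 (median 0.02), beside 5.14% higher and 2.71% lower of all genes with edgeR. At an unadjusted edgeR p under 0.05, for which no share of all genes was taken, 2 were higher and 3 lower.

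Of the retinoblastoma, DREAM and anti-proliferative genes, 3 of 14 were higher in LT-HSC KO and 2 lower (median -0.01), beside 22.6% and 11.0% of all genes. With either background subtracted 2 were higher and 0 lower, beside 474 and 366 of all genes (pooled) or 729 and 1057 (median). Fewer also passed without LT-HSC KO replicate 2, in the list and over all genes. The retinoblastoma gene Rb1, the end point of the Ink4 pathway, was at 39.0 and 31.7 CPM in WT and 90.2 and 74.3 CPM in KO (1.21, SE 0.22, adjusted p = 0.00306). The repressor gene E2f4 was at 172 and 135 CPM in WT and 300.4 and 265.8 CPM in KO (0.88, SE 0.19, adjusted p = 0.00761), and both calls held in all 12 alternatives. E2f5 was lower (-1.40, SE 0.30, adjusted p = 0.00684) except without LT-HSC KO replicate 1 (0.0547) or with a background subtracted (0.0778 and 0.0519). Lin52, a DREAM subunit gene, was higher (1.28, SE 0.30, adjusted p = 0.0107) except without LT-HSC KO replicate 2 (0.101) or with a background subtracted (0.188 and 0.231). Btg1, outside the naming rule, was lower (-0.72, edgeR adjusted p = 0.00935) except without LT-HSC KO replicate 2 (log2 fold change -0.64) or with a background subtracted (adjusted p of 0.122 and 0.112). The median receptor gene would put only 3.7 and 2.6 background counts on Btg1 in the KO libraries, beside 475 and 421 counted. In MPP, 0 of 15 passed with edgeR or DESeq2 (median 0.03), beside 5.14% higher and 2.71% lower of all genes with edgeR. At an unadjusted edgeR p under 0.05, for which no share of all genes was taken, 2 were higher and 2 lower.

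Of 20 tested genes that act on the inhibitors, 5 were lower in LT-HSC KO, 0 higher and 15 did not pass (median -0.19), beside 11.0% lower and 22.6% higher of all genes. DESeq2 gave the same counts, beside 1361 lower and 3472 higher of all genes. At an unadjusted edgeR p under 0.05, 8 were lower and 0 higher, and no share of all genes was taken at that threshold. The 5 lower genes became 1 with the pooled and 2 with the median background subtracted, and 3 with abundant-gene normalization. Lower calls over all genes went from 1731 to 366, 1057 and 994 in these fits. Fewer genes of the list passed without either LT-HSC KO library, and more without LT-HSC WT replicate 1. Ets1, which can activate Cdkn2a, was at 29.6 and 41.2 CPM in WT and 13.6 and 12.8 CPM in KO (-1.41, SE 0.25, adjusted p = 0.00304). The call held in all 12 alternatives, but the log2 fold change of Ets1 ranged from -10.117 to -1.235 over them. It was at -1.60 to -1.26 with a library left out, so the size of the difference depends on the processing. The TGF-beta mediator gene Smad2 (-0.88, SE 0.19, adjusted p = 0.00732) lost its call without LT-HSC KO replicate 1 (0.084) or with the pooled background subtracted (0.0577). Foxo1, a forkhead factor gene upstream of Cdkn1b (-0.83, SE 0.25, adjusted p = 0.0294), lost it without LT-HSC WT replicate 2 (0.0659) or LT-HSC KO replicate 1 (0.193), with a background subtracted (0.12 and 0.0855) and with abundant-gene normalization (0.0877). The Polycomb gene Ezh1 (-0.78, SE 0.20, adjusted p = 0.0165) lost it without LT-HSC KO replicate 2 (0.132) and with a background subtracted (0.109 and 0.0918). Smad4, outside the naming rule, was lower (-0.62, adjusted p = 0.0298) except without LT-HSC WT replicate 1 (0.124), LT-HSC KO replicate 1 (0.172) or LT-HSC KO replicate 2 (0.103), with abundant-gene normalization (0.0961) or with a background subtracted (0.156 and 0.139). In MPP, beside 5.14% higher and 2.71% lower of all genes with edgeR, 1 of 20 was higher and 0 lower with both edgeR and DESeq2 (median 0.08). This was Cbx7, a Polycomb gene known to repress Cdkn2a (0.76, SE 0.10, adjusted p = 0.0194), a call lost without MPP WT replicate 2 (0.0632) or MPP KO replicate 1 (0.05, just above the threshold).

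The genes whose profile over the 8 libraries lay nearest to that of Cdkn1a, by the root mean square difference of centred log2 CPM among 11768 genes, were Paqr7 (0.153), Med11 (0.215) and Thbd (0.232), where the median gene was at 0.781. Paqr7, a progestin receptor family gene, was at 31.8 and 41.4 CPM in LT-HSC WT, 11.4 and 13.5 in LT-HSC KO, 32.2 and 30.1 in MPP WT and 20.1 and 22.1 CPM in MPP KO. Thbd, the thrombomodulin gene, was at 39.1 and 55.1 CPM in LT-HSC WT and 12.4 and 19.5 CPM in LT-HSC KO, and nearer level between MPP WT (39.3 and 42.2 CPM) and MPP KO (35.8 and 33.5 CPM). This likeness is a description over 8 libraries, dominated by the LT-HSC KO pair.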

How the data were processed

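RNA was measured in 8 libraries as described in the report. The submitters' processing notes name CASAVA, TopHat and mm9; the sources used here give no versions, read counter or annotation. For each population the authors deposited a table of raw counts by gene and library, and per the file headers also a log2 fold change, a mean log2 CPM, a likelihood ratio score, a p-value and an FDR. Symbols and mm9 coordinates are those of the tables. Columns were matched by genotype and replicate, and 0 were left unmatched.

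Counts were fitted with edgeR 4.0.16 in R 4.3.3 (filterByExpr, TMM, robust quasi-likelihood test, Benjamini-Hochberg adjustment over all genes tested, threshold 0.05). Comparisons across populations used genes listed in both tables. CPM is a count scaled to a library total of 1000000, and RPKM divides it by GENCODE M21 exon length. None of the 10 genes overlaps another listed gene. Alternatives were DESeq2 1.42.0, its size factors, plain library size, no filter, each library left out, the replicate block, and a background subtracted per kb of gene span from receptor genes. Abundant-gene normalization and the median background were added after seeing the data. The code was tested on simulated counts. A count of 0 allows up to 3 counts, 0.547 to 0.603 CPM in LT-HSC and 0.24 to 0.251 CPM in MPP; intervals cover counting error only. Members and lists were chosen with earlier results of these data known. Named genes were the members, Tet1, from each of 5 lists and population the up to 4 called genes with the largest fold change whose mean normalized count reached 50, and the 3 genes most like Cdkn1a.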

Additional observations from a re-analysis of the deposited data

Results flagged for a closer look

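The KO against WT difference of 3 members passed the test of a difference between LT-HSC and MPP. The interaction on the log2 scale was -1.35 for Cdkn1a, which fell in both populations and further in LT-HSC. It was -0.71 for Mdm2, whose log2 fold change was -0.60 in LT-HSC and 0.10 in MPP. It was 0.91 for Cdkn2c, which was higher in KO in LT-HSC and overlapped between KO and WT in MPP. By the same interaction test, 13 of 14 erythroid and 4 of 6 bone stromal markers were higher and 5 of 7 megakaryocyte markers lower, beside 13.7% higher and 8.63% lower of all genes. Their part in the 3 differences was not tested. No group has enough libraries for a check of single libraries that stand apart.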

How the results depend on the processing

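Cdkn1a kept its direction under every alternative run in both populations, and its call in 12 of 12 alternatives in LT-HSC and 11 of 12 in MPP. The number of members called in LT-HSC, 5, was 1 with the pooled and 2 with the median background subtracted, and 2 to 6 with a library left out. In MPP it was 0 to 1 with a library left out, against 1. For the interaction it was 1 to 4, against 3. Between the KO populations it was 5 with either background and 5 to 8 with a library left out, against 8. Over all genes, calls in LT-HSC were 840 with the pooled and 1786 with the median background and 3423 to 6837 with a library left out, against 5282. In MPP they were 435 to 555 with a library left out, against 1170. For the interaction they were 1305 and 1988 with the backgrounds and 1243 to 4358 with a library left out, against 3693. Between the KO populations they were 3880 and 4172 with the backgrounds, against 8335, and between the WT populations 2456 to 7130 with a library left out, against 4965. A fit that leaves a group with 1 library assumes that it varies like the others.

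Another scaling moved the split of higher and lower calls: in LT-HSC from 3551 and 1731 to 4057 and 994 with abundant-gene normalization, in MPP from 766 and 404 to 624 and 679 with plain library size. For the interaction it moved from 2265 and 1428 to 2447 and 1063 (plain) and 2650 and 970 (abundant), and between the KO populations from 4435 and 3900 to 5036 and 2854, and 5608 and 2345. The median log2 fold change of abundant genes in LT-HSC was -0.18.

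Same-numbered libraries deviated together in all pairs of groups (correlations of 0.54 to 0.77 over 11769 genes), but with 2 pairs a comparison the labels share a number only. With the replicate number as a block, members called were 7 in LT-HSC, 4 in MPP and 5 for the interaction (beside 5, 1 and 3). The members that passed with the block and not without it were Cdkn1c (0.00725) and Ccng1 (0.0319) in LT-HSC, Trp53 (2.89e-10), Ccng1 (3.88e-05) and Mdm2 (0.0261) in MPP, Cdkn2d (8.13e-06) and Trp53 (0.0395) for the interaction, and Cdkn1a (0.0108) and Trp53 (0.00068) between the WT populations (edgeR adjusted p). Genes called with the block were 8806 in LT-HSC, 7234 in MPP, 8112 for the interaction and 7844 between the WT populations. With the block, few residual degrees of freedom remain, so these p-values and counts rest mostly on a spread estimated across genes. The log2 fold change of Trp53 in MPP was only -0.20 with the block.

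All reversed values belong to genes that did not pass. In LT-HSC, Trp53 (0.00) was at -0.026 with DESeq2, -0.015 with its size factors, -0.01 without a filter, -0.005 with the replicate block and -0.28 to 0.24 with a library left out; Tet1 was at 0.09 with abundant-gene normalization and at -0.29 to 0.083 with a library left out, and Cdkn1b at -0.063 to 0.22. In MPP, Cdkn2c was at -0.056 with plain library size and at -0.058 to 0.095 with a library left out; Cdkn1b was at 0.017 with abundant-gene normalization, 0.006 with the median background and -0.047 to 0.032 with a library left out, and Cdkn2d at -0.40 to 0.049. With a library left out, the interaction of Ccng1 was at -0.11 to 0.30, of Cdkn1b at -0.011 to 0.21 and of Trp53 at -0.060 to 0.40, and Cdkn2d between the KO populations at -0.80 to 0.022. The cause was not tested. Depth limits Cdkn2a and Cdkn2b, with at most 14 counts a library.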
